A study of Arabidopsis thaliana with 16 samples.

Results

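GIGANTEA (GI, AT1G22770) was followed across all 8 groups of a study of Arabidopsis thaliana seedlings. In it the cytokinin response factor ARR1 was activated under treatments meant to raise or lower the level of DELLA proteins. GI was read from the probe set whose single gene in the platform's annotation is GI, which was 1 probe set of 22746 and 1 gene of the 13350 that had such a probe set. GI was chosen by its measured level in these arrays. An earlier analysis had found it among the genes that were higher when ARR1 was activated under the treatment meant to raise DELLA proteins. For that comparison, and for the comparisons that use its arrays, the values are therefore given as a description without a test.

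GI encodes a large plant-specific protein of the circadian clock whose transcript normally peaks towards the evening. It binds and stabilises the F-box photoreceptor ZEITLUPE, and together with FKF1 it promotes CONSTANS and FT transcription and thereby flowering in long days. The protein has also been found to bind DELLA proteins, SPINDLY and the salt tolerance kinase SOS2, so it stands at a crossing of clock, gibberellin and stress signalling. ARR1 is a type-B response regulator, a DNA-binding factor that is activated by cytokinin signalling and turns on early genes such as the type-A response regulators.

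Seedlings of Columbia background, labelled as 6 days old, were kept at 22 °C in continuous light, put into liquid medium after 5 days and hybridised to 16 ATH1 arrays, with 2 replicates for each group. The transgenic line 35S::ARR1∆DDK-GR expresses ARR1 without its inhibitory DDK domain, fused to the glucocorticoid receptor, in most cells from the 35S promoter, and dexamethasone (DEX) lets the fusion into the nucleus. Its groups were ARR1_PAC_DEX (10 µM paclobutrazol for 18 h, 5 µM DEX for 3 h), ARR1_PAC (the same without DEX), ARR1_PAC_GA_DEX (paclobutrazol with 50 µM GA3, and DEX) and ARR1_PAC_GA (paclobutrazol with GA3, without DEX). Paclobutrazol (PAC) blocks gibberellin synthesis and lets DELLA proteins accumulate, and GA3 brings about their degradation. The wild type groups were Col_DEX (DEX alone), Col_PAC_BA (PAC, followed for 3 h by the cytokinin benzyladenine, BA, at 5 µM), Col_PAC_GA_BA (PAC with GA3, then BA) and Col_mock (untreated). No wild type group with PAC but without BA was analysed here, and the sources used here do not give the hour of harvest. Beyond the word biological the labels do not say how replicates were obtained, and the p-values therefore cover only the spread between these samples, which may be technical. In whole seedlings fewer expressing cells and less RNA per cell cannot be told apart.

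Replicate arrays correlated at 0.968 to 0.985 over the 9454 probe sets tested, and array medians lay between 3.08 and 3.12 log2 units. Of 6 root markers 2 had a named probe set, the beta-glucosidase PYK10 at group means of 10.99 to 11.51 and the root hair expansin EXPA7, which stayed below 2.82 on all arrays. None of 8 shoot markers had one, so the label of whole seedlings was checked by PYK10 only. As a check of the inducer, the type-A response regulators RR16 (ARR16) and ARR15 were the 2 of 10 listed family members with a named probe set. RR16 rose with DEX in PAC with GA3 by 5.10 ± 0.25 (log2 ± SE, limma adjusted p = 5.07e-07, where 10.4% of probe sets were called higher). ARR15 had 6.73 and 6.85 in ARR1_PAC_GA_DEX, against 2.71 and 2.41 in ARR1_PAC_GA. In wild type given PAC and BA, RR16 rose by 2.89 ± 0.25 relative to untreated wild type (limma adjusted p = 4.92e-05, with 3.61% called higher). ARR15 had 3.74 and 4.40 in Col_PAC_BA, against 2.59 and 2.71 in Col_mock. The values of ARR15 without DEX or BA lay below the array medians and near the lowest value of 2.36. It passed the filter on dim probe sets only through the groups where it was high. No size and no test are therefore given for its differences from these groups. RR16 rose in wild type given DEX alone too, by 1.22 ± 0.25 (limma adjusted p = 0.0484, just under the threshold, with 0.656% called higher). It had 5.08 and 5.64 in Col_DEX, against 4.28 and 3.99 in Col_mock. The Col_mock mean of 4.14 was the lowest of the 8 groups for RR16, and the difference with PAC and BA uses the same untreated arrays.

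The GI transcript lay above the floor of the arrays in every sample and was highest in the seedlings of the line that had received DEX. Its log2 values ran between 4.49 and 6.29 over the 16 arrays, against a lowest value of 2.36 on every array. In ARR1_PAC_DEX it had 6.25 and 5.80 in replicates 1 and 2, and in ARR1_PAC 5.29 and 4.71. In ARR1_PAC_GA_DEX it had 6.29 and 5.45, and in ARR1_PAC_GA 5.13 and 4.95. The 4 DEX-treated arrays of the line thus lay above all 12 other arrays, at 5.45 to 6.29 against 4.49 to 5.40. The same order held for 7.37% of the probe sets tested, and for GI it is in part fixed by how the gene was chosen.

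In wild type GI had 5.22 and 5.10 in Col_DEX, 4.98 and 4.49 in Col_PAC_BA, 4.86 and 4.69 in Col_PAC_GA_BA, and 5.40 and 5.10 in Col_mock. The 4 wild type arrays with BA lay below the 4 without it, at 4.49 to 4.98 against 5.10 to 5.40, an order that 12.3% of the probe sets tested also showed. All arrays with BA had received PAC and none of the wild type arrays without BA had, so BA and PAC cannot be told apart in this order.

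**Figure D1:**
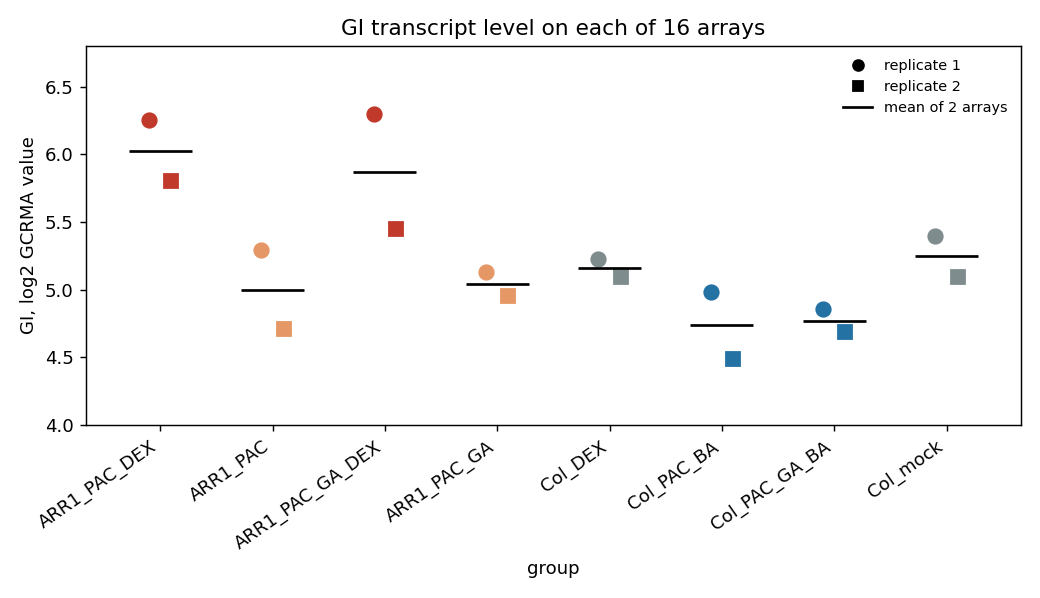
GI transcript level on each array, with the log2 GCRMA value on the vertical axis and the 8 groups on the horizontal axis (red, the line with DEX; orange, the line without DEX; blue, wild type with BA; grey, wild type without BA; bars, means of 2 arrays). The 4 red points lie between 5.45 and 6.29, above all others, and replicate 1 (circles) lies above replicate 2 (squares) in all 8 groups.

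Ordered by group mean, GI ran from ARR1_PAC_DEX (6.03 ± 0.32, SD, n = 2) and ARR1_PAC_GA_DEX (5.87 ± 0.60) through Col_mock (5.25 ± 0.21), Col_DEX (5.16 ± 0.091), ARR1_PAC_GA (5.04 ± 0.13) and ARR1_PAC (5.00 ± 0.41) to Col_PAC_GA_BA (4.77 ± 0.12) and Col_PAC_BA (4.74 ± 0.35). The standard error of a difference between any pair of these means was 0.28. The step between ARR1_PAC_GA_DEX and Col_mock was 0.63, or 2.21 standard errors. It is the largest step found after the means had been ordered, and it was not tested. The other 6 steps between neighbours were 0.036 to 0.23, each below 1 standard error, and in each the arrays overlapped. Neighbours in these 6 steps did not differ beyond their spread.

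The replicates of GI were further apart than those of most probe sets. The residual SD was 0.32 log2 units, against a median of 0.21 over the probe sets tested, and 84.7% of them had an SD as low or lower. In all 8 groups replicate 1 had the higher value, by 0.13 (Col_DEX) to 0.84 (ARR1_PAC_GA_DEX) and by 0.38 in the median. Of the probe sets tested, 1.11% had replicate 1 higher in all 8 groups and 2.91% had it lower in all 8. The labels give the replicate numbers without saying what they share.

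The first comparison concerned ARR1 activation in PAC, the treatment meant to raise DELLA proteins, and is the one in which GI was chosen. GI was 1.03 ± 0.28 higher on the log2 scale in ARR1_PAC_DEX than in ARR1_PAC (2.04-fold, SE, n = 2 arrays per group). The difference was 0.74 without ARR1_PAC replicate 2 and 1.32 without ARR1_PAC replicate 1. Of the probe sets tested, 7.30% had a larger change in either direction, and 9.12% were called higher.

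With GA3 added, the arrays are separate from those of the first comparison and a test could be made. GI had a mean of 5.87 in ARR1_PAC_GA_DEX, against 5.04 in ARR1_PAC_GA, a difference of 0.83 ± 0.28 (1.78-fold, 95% interval 0.21 to 1.44, n = 2 arrays per group). In the fit without a replicate block this did not pass the threshold after adjustment over all probe sets tested (limma, unadjusted p = 0.0122, adjusted p = 0.0616). Of these probe sets 18.1% passed in either direction and 10.4% as higher. With the replicate number as a block the GI difference passed (limma adjusted p = 0.00711), though the labels do not say what arrays of the same number share. Both DEX arrays lay above both arrays without DEX, which held for 30.2% of the probe sets tested. The difference was 0.41 without ARR1_PAC_GA_DEX replicate 1 and 1.25 without replicate 2 of the same group. As GI was higher in replicate 1 in all 8 groups, both values also contain the gap between replicates. With arrays of the same number set side by side, GI had 6.29 against 5.13 in replicate 1 and 5.45 against 4.95 in replicate 2.

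The DEX response of GI in PAC exceeded its DEX response in PAC with GA3 by 0.20 ± 0.40. It contains the comparison in which the gene was chosen and is given without a test. It was 0.62 without ARR1_PAC_GA_DEX replicate 1 and −0.22 without replicate 2, so that its sign depended on which of these 2 arrays was kept.

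DEX by itself, in wild type without the transgene, did not move GI past its spread. The means were 5.16 in Col_DEX and 5.25 in Col_mock, a difference of −0.085 ± 0.28 (adjusted p = 1.00 by limma, where 0.74% of probe sets were called). The 95% interval of −0.70 to 0.53 allows a level between 0.616-fold and 1.44-fold that of untreated seedlings. These seedlings had received no PAC, unlike those of the line. The response in PAC with GA3 net of that in wild type was 0.91 ± 0.40, with a 95% interval of 0.045 to 1.78 that is not adjusted for the number of probe sets. It did not pass after adjustment (unadjusted p = 0.0407, adjusted p = 0.232, 5.13% of probe sets called), and it was 0.49 without ARR1_PAC_GA_DEX replicate 1. No limma alternative brought it past the threshold (adjusted p = 0.0562 to 0.518).

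**Figure D2:**
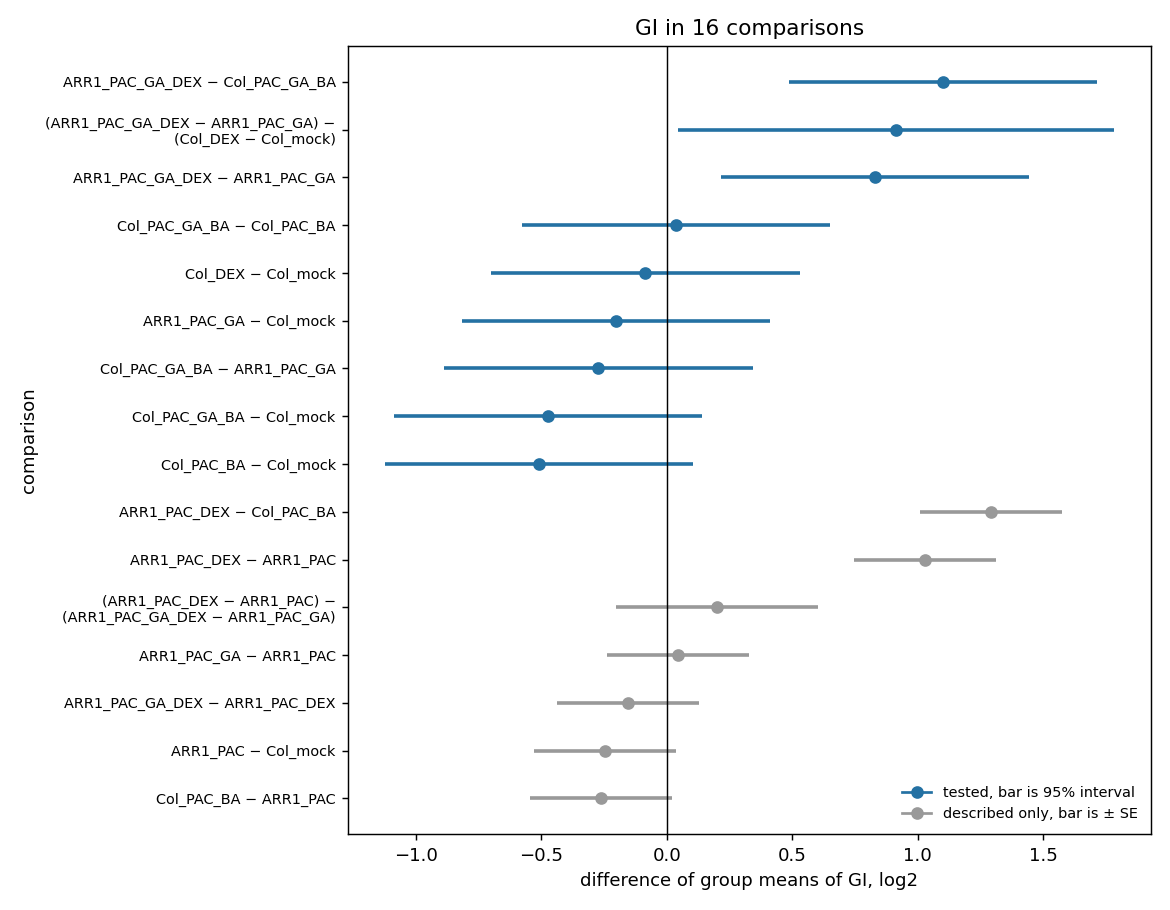
Differences between group means of GI on the log2 scale (horizontal axis) in 16 comparisons, each named on the vertical axis by the groups subtracted. Blue points were tested and carry 95% intervals, grey points share arrays with the comparison in which GI was chosen and carry standard errors. The interval of ARR1_PAC_GA_DEX against Col_PAC_GA_BA is the farthest from 0, at 0.49 to 1.71.

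GA3 was compared with its absence in 3 settings, and in none did the level of GI move beyond 1 standard error. In wild type with PAC and BA the means were 4.77 with GA3 (Col_PAC_GA_BA) and 4.74 without it (Col_PAC_BA), which differ by 0.036 ± 0.28 (interval −0.58 to 0.65, limma adjusted p = 0.966, 0.0317% of probe sets called). In the line the difference was 0.044 ± 0.28 without DEX (ARR1_PAC_GA against ARR1_PAC) and −0.16 ± 0.28 with DEX (ARR1_PAC_GA_DEX against ARR1_PAC_DEX), both as descriptions. The last of these was −0.58 without ARR1_PAC_GA_DEX replicate 1 and 0.27 without replicate 2. The interval in wild type allows a level with GA3 between 0.67-fold and 1.57-fold that without it.

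Seedlings given BA had the lowest group means of GI, though no difference from untreated wild type passed the test. Relative to untreated wild type GI differed by −0.51 ± 0.28 in Col_PAC_BA (4.74 against 5.25, interval −1.12 to 0.10) and by −0.47 ± 0.28 in Col_PAC_GA_BA (4.77 against 5.25, interval −1.09 to 0.14). Neither passed (limma adjusted p = 0.274 and 0.330, with 8.75% and 6.84% of probe sets called), and both use the same untreated arrays. The arrays did not overlap in either comparison, as for 33.5% and 35.3% of the probe sets tested. The difference in Col_PAC_BA was −0.26 without Col_PAC_BA replicate 2 and −0.76 without its replicate 1. Against the line with the same PAC and GA3 but without BA, GI in Col_PAC_GA_BA differed by −0.27 ± 0.28 (4.77 against 5.04, interval −0.89 to 0.34, limma adjusted p = 0.626, 3.82% called), with no overlap of the arrays, as for 33.8% of the probe sets tested, and genotype and BA cannot be told apart there. Against ARR1_PAC, Col_PAC_BA differed by −0.26 ± 0.28, as a description.

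GI in the line without DEX differed from untreated wild type by less than 1 standard error. ARR1_PAC_GA differed from Col_mock by −0.20 ± 0.28 (5.04 against 5.25, interval −0.82 to 0.41, limma adjusted p = 1.00, 0.328% called). This was −0.052 without Col_mock replicate 1, −0.35 without Col_mock replicate 2 and −0.11 without ARR1_PAC_GA replicate 2. ARR1_PAC differed from Col_mock by −0.25 ± 0.28, given without a test. Genotype and PAC treatment cannot be told apart in either.

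Active ARR1 was also set against BA at the same PAC and GA3 treatment, and this was the only one of the 9 tests that GI passed in the fit without a replicate block. GI was higher in ARR1_PAC_GA_DEX, at 6.29 and 5.45, than in Col_PAC_GA_BA, at 4.86 and 4.69. The difference was 1.1 ± 0.28 (2.15-fold, interval 0.49 to 1.71, limma adjusted p = 0.0243), in a comparison where 13.6% of probe sets were called, 9% as higher, and where 35.5% had both arrays of the line above both of wild type. RR16 was higher in this comparison as well, by 2.80 ± 0.25 (limma adjusted p = 0.000174). ARR15 had 6.73 and 6.85 in ARR1_PAC_GA_DEX, against 4.63 and 3.65 in Col_PAC_GA_BA, and had passed the filter only through groups where it was high. The groups differ in genotype, in DEX and in BA, which cannot be told apart. The call of GI was lost without ARR1_PAC_GA_DEX replicate 1 (0.68, adjusted p = 0.158), Col_PAC_GA_BA replicate 1 (1.19, adjusted p = 0.0843) or Col_PAC_GA_BA replicate 2 (1.02, adjusted p = 0.125). It was also lost with no filter on dim probe sets (adjusted p = 0.0966) and when the 4 arrays of these groups were fitted alone (adjusted p = 0.0844). The matching comparison in PAC alone, ARR1_PAC_DEX against Col_PAC_BA, had a difference of 1.29 ± 0.28, given without a test.

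**Figure D3:**
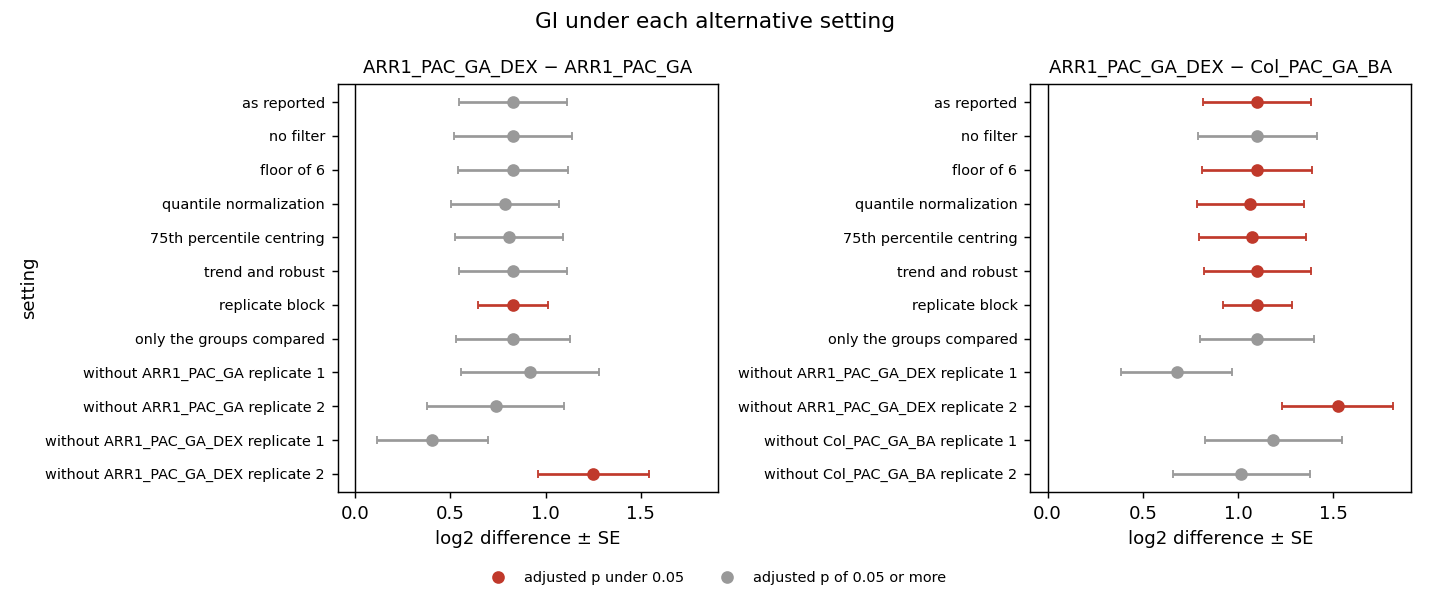
GI in ARR1_PAC_GA_DEX minus ARR1_PAC_GA (left) and minus Col_PAC_GA_BA (right) as reported and under each limma alternative (vertical axis), as the log2 difference with its standard error (horizontal axis). Red marks an adjusted p under 0.05, which on the left holds with the replicate number as a block and without ARR1_PAC_GA_DEX replicate 2. Leaving out ARR1_PAC_GA_DEX replicate 1 gives the lowest value on both sides, 0.41 and 0.68, and leaving out replicate 2 the highest, 1.25 and 1.52.

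Other genes of the clock and of photoperiodic flowering could hardly be followed beside GI. Of 59 such genes in 4 lists, 10 had a named probe set, and 0 reached 4 log2 units on at least 2 arrays. None of the 12 evening-phased genes had a named probe set. Genes without a named probe set may still be on the array, since the annotation gave no gene for 8730 probe sets and several for 503. The named ones were the morning-phased MYB factors RVE5 and RVE6 (highest values 2.75 and 3.16), the clock components TIC, XCT, LIP1 and FIO1 (3.84, 3.14, 3.76 and 2.60), and the flowering genes CDF4, CDF5, AGL24 and SPY (3.33, 2.42, 2.40 and 3.64). CDF4 and CDF5 are DOF factors of the family that represses CONSTANS, and SPY is the glycosyltransferase SPINDLY. Of the gibberellin signalling genes the receptors GID1A, GID1B and GID1C also stayed below 4 log2 units. SLY1, the F-box protein that targets DELLA proteins, was the only one tested of the 4 with a named probe set, with −0.23 ± 0.27 with DEX in PAC with GA3 (limma adjusted p = 0.635). Its values there were 3.81 and 3.66 with DEX, against 4.01 and 3.91 without it. They lie close to the filter limit of 4 log2 units, so little can be read from this difference.

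Without the filter, TIC (TIME FOR COFFEE) was the only one of these 10 clock and flowering genes called in any of the 9 tests. Its difference was −0.47 in ARR1_PAC_GA_DEX against ARR1_PAC_GA (adjusted p = 0.0358) and −0.53 in ARR1_PAC_GA_DEX against Col_PAC_GA_BA (adjusted p = 0.0316), where 2.09% and 1.23% of all 22746 probe sets were called lower. Its group means of 3.26 to 3.78 lie near the floor of 2.36 of the arrays.

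Genes were also ranked by how closely their group means followed those of GI, which are highest in both DEX groups of the line, so that higher means in these groups are fixed by the choice. Over the 8 group means, and among 1184 named probe sets whose means spanned at least 1 log2 unit, AT5G43720 had the highest Pearson correlation with GI (0.931), followed by AT5G65120 (0.928), AT1G45160 (0.914), AT1G14300 (0.910), AT3G14760 (0.903), AT4G30840 (0.903), AT1G68580 (0.902) and POLA3 (0.898), a subunit of the DNA polymerase alpha and primase complex. Over the 16 arrays the same 8 genes had correlations of 0.708 (AT1G14300) to 0.845 (AT5G65120). Correlations between −0.83 and 0.81 covered the middle 90% of these probe sets, and 7 reached 0.9, the 7 just named before POLA3. AT5G65120 and AT3G14760 had means of at least 4 log2 units only in ARR1_PAC_DEX or ARR1_PAC_GA_DEX. The 8 groups share treatments, and the correlations are a description.

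In the gene most like it, AT5G43720, the difference with DEX was 0.94 in PAC, 0.75 in PAC with GA3 and 0.054 in wild type, side by side with 1.03, 0.83 and −0.085 for GI. POLA3 had 1.47, 1.68 and −0.31. The genes least like GI were AT2G15580 (−0.971), AT3G47510 (−0.967) and AT3G44450 (−0.959). AT3G44450 had −1.82 with DEX in PAC, −1.73 in PAC with GA3 and 0.089 in wild type.

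**Figure D4:**
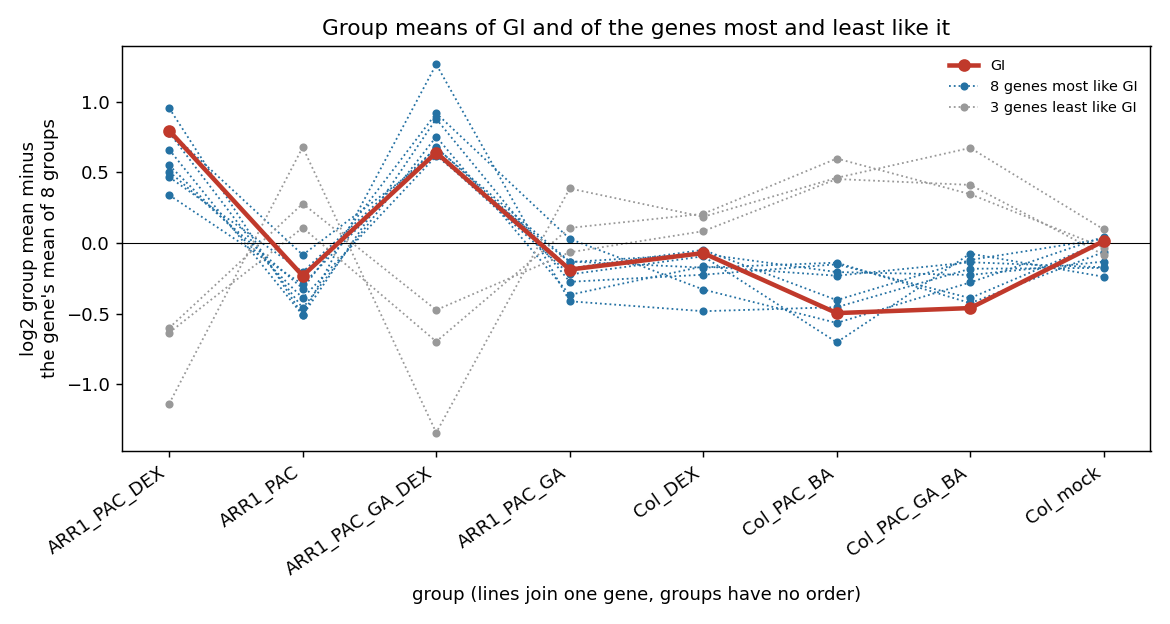
Group means of GI (red), of the 8 genes most like it (blue) and of the 3 least like it (grey), each as log2 value minus the gene's own mean over the 8 groups (vertical axis), by group (horizontal axis). The red and blue points are highest in the 2 DEX groups of the line, where the grey points are lowest, and GI lies lowest in the 2 BA groups.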

How the data were processed

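The authors deposited log2 values for each probe set, for which the submitters' processing notes name GCRMA, a method that removes background, puts arrays on 1 scale and combines the probes of a set. Its version is not given in the sources used here. Of 22810 probe sets 64 controls were dropped, and 9454 with at least 4 log2 units on at least 2 arrays were tested. Names came from the platform annotation where it gave 1 gene (13513 probe sets; 503 had several, 8730 none), and 13436 of these were matched to a locus by gene identifier.

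All 16 arrays entered 1 limma fit of the 8 group means (limma 3.58.1, R 4.3.3, eBayes), which had 8 residual degrees of freedom and was tested on simulated data first. Tests were two-sided and Benjamini-Hochberg adjusted over all probe sets tested, at a threshold of 0.05. GI, the gene lists and the tests were chosen with earlier results of these data known. Named genes were GI, the members of the clock and flowering lists that had a probe set, up to 4 of each other list, and the 8 most and 3 least like GI by Pearson correlation of group means, among probe sets whose means spanned 1 log2 unit. A promoter motif search had been planned and was not run, as no promoter sequence was used here. Of 111 listed genes 18 had a named probe set and 4 passed the filter. No light signalling gene (of 14) and no SOS gene (of 3) had a named probe set. The alternatives changed the filter (none, or a floor of 6), the scaling (quantile, 75th percentile), the variance model, the replicate block, the samples fitted, the test (a Z test, as the study's methods can be read) and left out each array, taking the spread of a lone array from the rest. The number of arrays limits the precision.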

Additional observations from a re-analysis of the deposited data

How the results depend on the processing

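In ARR1_PAC_GA_DEX against ARR1_PAC_GA GI kept its direction throughout, with 0.41 to 1.25 when single arrays were left out, and passed without ARR1_PAC_GA_DEX replicate 2 and with the replicate number as a block (0.83, adjusted p = 0.00711, against 0.0616 without it). In ARR1_PAC_GA_DEX against Col_PAC_GA_BA the call was lost with no filter (1.1) and with only the groups compared (1.1), and single arrays left out gave 0.68 to 1.52 (adjusted p = 0.00294 to 0.158 over the limma alternatives). The difference near 0 for GA3 in wild type with BA turned its sign with quantile normalization (−0.034) and 75th percentile centring (−0.033). It ran from −0.21 to 0.28 with single arrays left out. The Z test, whose value is not a log2 difference, was also negative (Z = −0.058). DEX in wild type ran from −0.24 to 0.064, positive only without Col_mock replicate 1. Described without a test, DEX in PAC minus DEX in PAC with GA3 ran from −0.22 to 0.62, and GA3 in the line with DEX from −0.58 to 0.27. GA3 in the line without DEX, ARR1_PAC against Col_mock and Col_PAC_BA against ARR1_PAC also took either sign. The cause of these shifts was not tested. The other tested differences kept direction and side of the threshold under all alternatives.

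The labels give only shared replicate numbers. Deviations of same-numbered arrays correlated at −0.33 to 0.48 over 28 pairs of groups, above 0.1 in 21 and below −0.1 in 2, both with Col_PAC_BA. The block changed no other call of GI. For those 2 pairs the crossed numbers, tried after seeing the data, called 350 probe sets in Col_PAC_BA against ARR1_PAC (291 with the numbers as labelled, 228 without a block) and 502 in ARR1_PAC_DEX against Col_PAC_BA (501 and 352). Quantile normalization and percentile centring moved the median of all probe sets by at most 0.09. Of the 8 genes most like GI, 6 were among the 8 most like it with quantile normalization, 6 with percentile centring and 2 by correlation over the 16 arrays. Counts of probe sets called moved by over 1.5 times under some alternatives in all 9 tests (lowest and highest in brackets), from 1707 (694 to 1948) for DEX in PAC with GA3, 70 (29 to 85) for DEX in wild type, 485 (68 to 586) for the net response, 3 (0 to 173) for GA3 with BA, 361 (95 to 502) for Col_PAC_GA_BA against ARR1_PAC_GA, 1285 (211 to 1588) for ARR1_PAC_GA_DEX against Col_PAC_GA_BA, and, against Col_mock, 827 (98 to 1032) for Col_PAC_BA, 647 (127 to 869) for Col_PAC_GA_BA and 31 (3 to 41) for ARR1_PAC_GA.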
